A study of Mus musculus with 23 samples.

Results

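Primitive endoderm is the tissue that separates from the epiblast inside the mouse blastocyst, in response to FGF and ERK signalling, under the transcription factors Gata6, Gata4 and Sox7. It gives rise to parietal endoderm, which lays down a thick basement membrane, and to visceral endoderm, which wraps the epiblast and feeds it by taking up protein from outside. That uptake runs through the scavenger receptors megalin (Lrp2) and cubilin (Cubn), with amnionless (Amn) as the membrane anchor of cubilin and Dab2 as the adaptor that links the receptors to clathrin. The genes described here are these 7 together with Hnf4a, a nuclear receptor that visceral endoderm needs, Pdgfra, the PDGF receptor that marks primitive endoderm, and Car4, a carbonic anhydrase anchored to the cell surface. These 10 genes were chosen by name from 53607 gene rows, with earlier results of these data known. Cubn and Car4 were picked because they rose strongly in FA in the reference line. The p-values of the 10 genes, and counts set beside the share of all genes, are therefore not independent of that choice. All 10 were among the 20372 genes that passed the low-count filter. Sox7, Amn, Cubn and Car4 were at or near 0 in some groups and passed through the groups where they were high, so counts over the 10 genes are given as descriptions.

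RNA was sequenced from 23 libraries of mouse embryonic stem cells of the Raslox/lox background, in 8 groups of 3 libraries, except that the reference line in FA had 2. Every group carried H-Ras-/-, N-Ras-/- and Ubiq-CreERT2, a Cre recombinase switched on by 4-hydroxytamoxifen (OHT), and OHT for 6 days served to delete the RAS that was left. The drug and the deletion cannot be told apart in this design. The reference line was ERF WT without OHT, the RAS-deleted line was ERF WT with OHT, the ERF knockout line was ERF KO without OHT, and the fourth line was ERF KO with OHT. ERF belongs to the ETS family and represses transcription until ERK inactivates it. Each line was kept in 2iL, a medium with inhibitors of MEK and GSK3 and with LIF that holds cells in the naive state, or spent 48 hours in FA, which holds FGF2 and Activin A and carries cells toward the epiblast. The number of ERF KO clones is not given in the sources used here, nor is whether libraries of a group came from separate cultures, so p-values measure the spread between these libraries.

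The libraries held 16.2 to 29.9 M counts (median 21.97 M). The genotypes are given as labelled: Erf mRNA did not mark the libraries labelled ERF KO. With RAS in 2iL they stood above the reference line, at 96.1 to 129 CPM (counts scaled to 1 M of the TMM-adjusted library size) against 70.6 to 85.8 CPM, as they did without RAS in 2iL, at 129.8 to 172 against 82.99 to 90.2 CPM. In FA the groups overlapped, at 50.7 to 64.8 against 56.5 to 69.8 CPM with RAS and 49.3 to 67.9 against 66.8 to 74.4 CPM without it. Hras ran from 12.0 to 25.9 CPM and Nras from 5.32 to 52.3 CPM over all libraries. In 4 libraries, replicate 1 of the reference and the RAS-deleted line in both media, genes of chromosome 8 were raised by a median of 0.22 to 0.31 on the log2 scale, against -0.09 to 0.00 in the other 19 libraries. None of the 10 genes lies on that chromosome. On GRCm38, Cubn lies at chr2:13276338-13491813, Lrp2 at chr2:69424340-69586065, Dab2 at chr15:6299788-6440712 and Car4 at chr11:84957786-84966044, while Gata4 and Sox7 lie on the same chromosome, at chr14:63198922-63271692 and chr14:63943673-63950732. Of other cell types, 6 definitive endoderm and mesoderm markers summed to 8.30 to 21.7 CPM over the libraries, 5 fibroblast markers to 2.11 to 7.35 CPM and 5 trophoblast markers to 9.49 to 124 CPM. Of these lists Mixl1, T, Mesp1, Lum and Postn were at or near 0, at most 0.912 CPM in any library. Eomes, Gsc and Hand1 were not, reaching 18.2, 11.3 and 8.10 CPM in single libraries, and Tfap2c reached 119 CPM. Tfap2c was the largest part of the trophoblast sum in every group. Eomes and Gsc together were most of the definitive endoderm and mesoderm sum, so changes in these sums can be those of single genes.

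The name of the gene set was checked against endoderm markers. The primitive endoderm factors, the endocytic receptors and their adaptor were present together in FA in both lines with RAS. Secreted products of visceral endoderm were mixed. Afp (alpha-fetoprotein), Ttr (transthyretin) and Apoa1 (an apolipoprotein) were near 0, at no more than 0.348, 0.432 and 0.298 CPM in any library. In the reference line, the apolipoprotein Apob stood at a mean of 1.22 CPM in 2iL and 18.7 ± 10.4 CPM (SD, n = 2) in FA. The iron carrier Trf stood at 5.39 ± 3.67 CPM (SD, n = 3) in 2iL and 7.05 ± 0.609 CPM (SD, n = 2) in FA, a difference within its spread. The mean of Trf was lower in FA in the RAS-deleted line (0.777 against 1.71 CPM) and the ERF knockout line (11.7 against 22.8 CPM), neither called. In the line with ERF knockout and RAS deletion it was 4.39 against 19.9 CPM, called lower (-2.18). The apolipoprotein Apoe went the other way from Apob in the reference line, from a mean of 301 CPM in 2iL to 152 ± 49.4 CPM (SD, n = 2) in FA. It was called lower in FA by edgeR in the other 3 lines (-1.41, -1.47 and -2.30). Lrp2 was also expressed in every 2iL group, at 16.9 to 60.9 CPM over the 12 libraries. Pou5f1, which embryonic stem cells and epiblast express and mature endoderm does not, stood at 272 CPM or more in every library.

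The sequence upstream of the start was read for the 7 genes that matched the RefSeq promoter table of GRCm38.p6 (Pdgfra, Hnf4a, Dab2, Amn, Cubn, Lrp2 and Car4), as 9 windows of 250 bases. Cubn, Dab2, Lrp2 and Car4 are shown because their levels in FA part company when RAS is deleted, which is the pattern that the values below describe. Capitals mark matches on either strand to the GATA motifs AGATAA and TGATAA and to the ETS motifs CCGGAA and AGGAAG. A match on the opposite strand reads as its reverse complement, so CCGGAA there is printed as TTCCGG. Bases that overlap a transcript in GENCODE M21 were left out, 36 bases for Lrp2 and 1 base for Dab2.
Cubn, chr2:13491877-13492126, minus strand: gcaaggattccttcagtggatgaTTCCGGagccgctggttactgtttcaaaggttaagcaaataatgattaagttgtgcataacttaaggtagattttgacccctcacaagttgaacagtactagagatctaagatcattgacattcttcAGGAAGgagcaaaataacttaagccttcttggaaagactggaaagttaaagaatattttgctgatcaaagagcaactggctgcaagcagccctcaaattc
Dab2, chr15:6299539-6299787, plus strand, first start: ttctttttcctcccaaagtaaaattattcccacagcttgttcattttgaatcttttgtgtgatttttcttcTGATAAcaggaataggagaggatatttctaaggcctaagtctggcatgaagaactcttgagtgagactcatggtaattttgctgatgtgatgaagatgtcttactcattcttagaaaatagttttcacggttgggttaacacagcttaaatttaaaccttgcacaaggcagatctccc
Lrp2, chr2:69586066-69586279, minus strand: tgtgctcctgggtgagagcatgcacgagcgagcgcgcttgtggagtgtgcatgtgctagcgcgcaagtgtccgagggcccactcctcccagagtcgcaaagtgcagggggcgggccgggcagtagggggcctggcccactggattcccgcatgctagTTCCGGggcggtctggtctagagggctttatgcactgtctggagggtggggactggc
Car4, chr11:84957504-84957753, plus strand: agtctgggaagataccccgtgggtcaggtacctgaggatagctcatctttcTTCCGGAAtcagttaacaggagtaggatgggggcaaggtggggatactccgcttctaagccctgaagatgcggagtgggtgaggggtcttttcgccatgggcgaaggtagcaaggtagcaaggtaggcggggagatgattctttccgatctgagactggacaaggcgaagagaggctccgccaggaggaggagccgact

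CCGGAA was found 227 bases before the start of Cubn, 93 bases before that of Lrp2 and 154 bases before the second start of Dab2, in each case on the opposite strand. In Car4, matches on the opposite strand and on the same strand, 199 and 197 bases before the start, overlap in 1 palindromic run. Cubn also held AGGAAG 100 bases before its start, Dab2 held TGATAA 179 bases before its first start, and Hnf4a held AGATAA and AGGAAG 52 and 13 bases before its first start. Pdgfra, Amn and the second start of Hnf4a held none of these letters. Among all 32851 windows of this length, 12.0% held CCGGAA, 29.5% held AGGAAG, 9.99% held AGATAA and 7.94% held TGATAA. A match is a run of letters and shows nothing about binding.

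In the reference line, all 10 genes were higher in FA than in 2iL and no library of one medium overlapped the other. The share of all genes that separate in this way was not counted, so this count is a description. Because this contrast was used to choose Cubn and Car4, the values are given without a test. Cubn had 0.0700, 0.0595 and 0.0929 CPM in the 3 libraries in 2iL and 339.9 and 157 CPM in the 2 in FA. This is a ratio of 3492 between summed counts, with an exact 95% interval for counting error alone of 1496 to 10760, since only 5 counts of Cubn were seen in 2iL. Car4 had no count in any library in 2iL and 55.4 and 85.1 CPM in FA, at least 499-fold higher against a floor of 3 counts per library. Lrp2, already at 57.5 to 60.5 CPM in 2iL, reached 487 and 515 CPM.

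The transcription factors started from different levels. Gata4 and Gata6 were present in 2iL, at 5.91 ± 2.06 and 4.97 ± 1.67 CPM (SD, n = 3), and were 3.11 and 3.87 times as high in FA, at 18.4 ± 5.74 and 19.2 ± 7.995 CPM (SD, n = 2). Sox7 had 3 or 4 counts per library in 2iL and 10.5 ± 2.72 CPM (SD, n = 2) in FA. Hnf4a was 15.03 times as high in FA, Pdgfra 8.60 times, Amn 8.93 times and Dab2 30.4 times. Dab2 stood at 2.27 ± 0.269 CPM (SD, n = 3) in 2iL and reached 69.0 ± 20.5 CPM (SD, n = 2). Over the 10 genes the difference of mean log2(CPM + 1) ran from 1.504 for Gata4 to 7.76 for Cubn. The median fitted change over all genes tested was 0.03. The 2 libraries in FA stood apart: replicate 1 was the higher in 8 of the 10 genes, while Lrp2 and Car4 were higher in replicate 2. As a ratio the gap was largest for Pdgfra, at 23.5 against 9.80 CPM. Replicate 1 is one of the libraries with raised chromosome 8 expression, and the part of this in the levels was not tested. In these bulk libraries, fewer cells of a type and less RNA per cell cannot be told apart. Markers of other states and types moved with FA in this line too. The 5 stem cell markers summed to 2065 to 2210 CPM in 2iL and 602 to 636 CPM in FA. The 4 epiblast-like markers went from 43.5 to 72.5 to 548 to 619.5 CPM, and the 5 trophoblast markers from 106 to 124 to 18.1 to 24.2 CPM. Definitive endoderm and mesoderm markers and fibroblast markers overlapped between the media. The part of these markers in the rise was not tested.

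Per transcript length (TPM), the order in the reference line in FA was led by Car4 at 71.6 ± 8.52 TPM, followed by Lrp2 at 34.2 ± 2.92, Dab2 at 30.9 ± 11.5 and Cubn at 22.4 ± 14.1 TPM (SD, n = 2). The differences among the last 3 were smaller than the SD of Cubn, while Lrp2 varied little between its libraries. The regulators were lower, with Gata6 at 7.70 ± 3.31 TPM and Gata4 at 6.14 ± 2.89 TPM (SD, n = 2). Amn, whose protein forms 1 receptor complex with that of Cubn, stood at 2.58 ± 0.754 TPM (SD, n = 2).

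**Figure D1:**
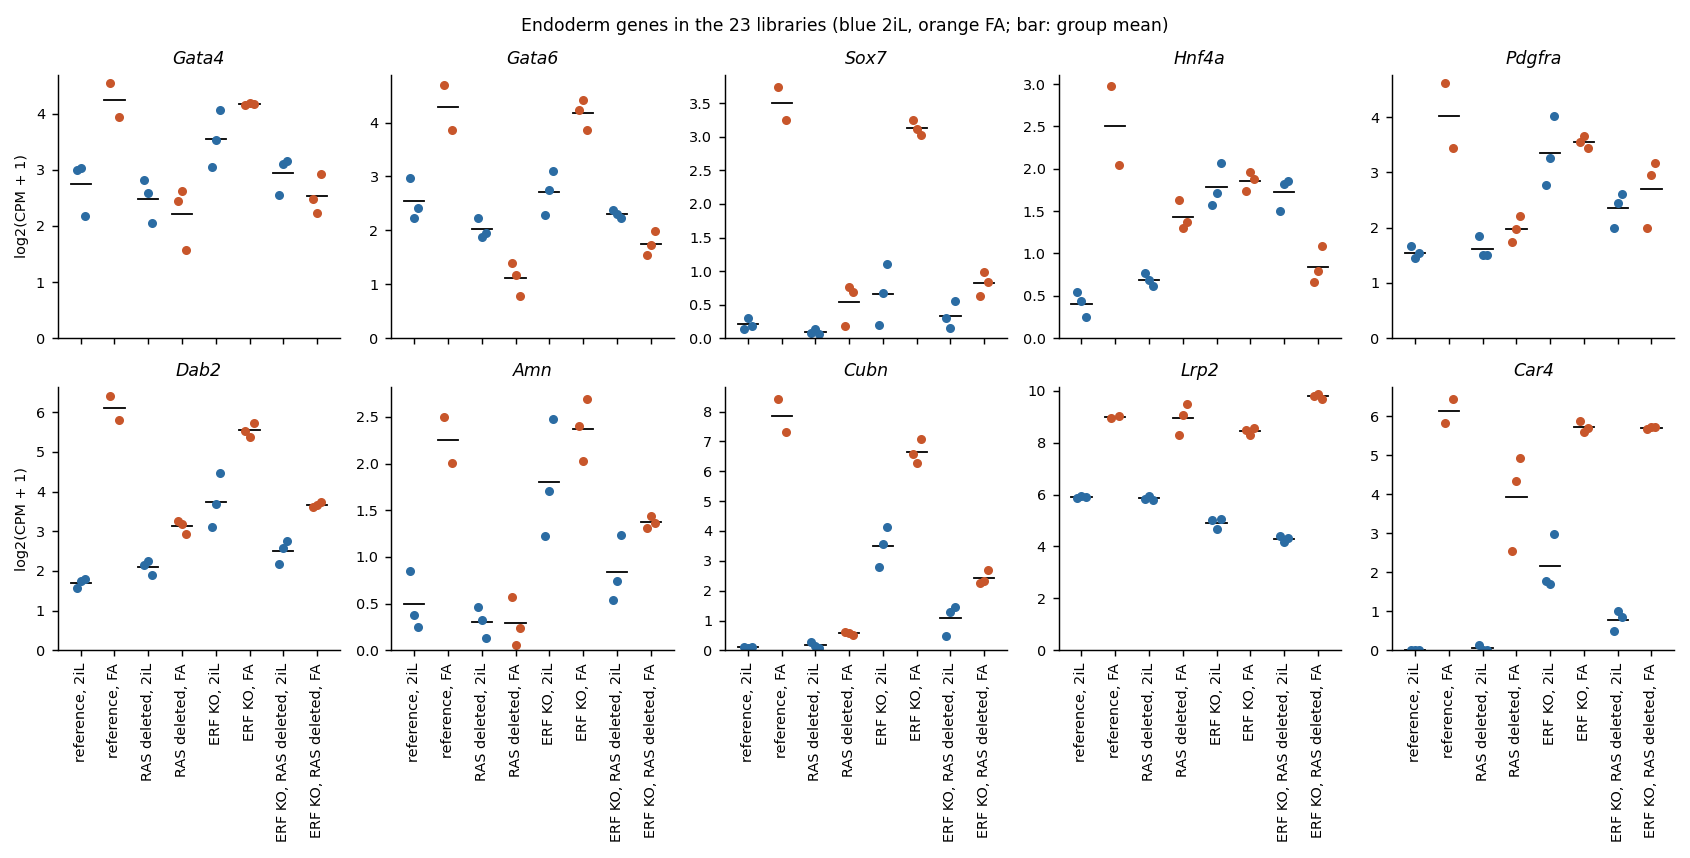
Each panel plots log2(CPM + 1) of 1 gene in all 23 libraries, with groups on the horizontal axis, 2iL in blue, FA in orange and a bar at the group mean. Cubn and Sox7 are high in FA only in the 2 lines with RAS, Lrp2 is high in FA in all 4 lines, and Car4 in FA is lowest in the RAS-deleted line with ERF wild type, at 4.86 to 29.6 CPM.

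The response to FA was then tested in the other 3 lines, which share no library with the contrast that chose Cubn and Car4. Calls rest on edgeR's quasi-likelihood test over all 20372 genes with a 2-fold minimum and a threshold of 0.05 on the p adjusted by Benjamini and Hochberg's method. In the ERF knockout line with RAS, 6 of the 10 genes were called higher and none lower, where 12.3% of all genes were called higher. They were Gata6, Sox7, Dab2, Cubn, Lrp2 and Car4. Cubn rose from 5.96, 10.7 and 16.5 CPM to 95.02, 76.6 and 133 CPM, or 3.21 on the log2 scale (SE 0.34, edgeR adjusted p = 8.37e-07). Sox7 rose by 3.63 (SE 0.41, edgeR adjusted p = 2.27e-07), Car4 by 3.76 (SE 0.54, edgeR adjusted p = 4.87e-05) and Gata6 by 1.59 (SE 0.27, edgeR adjusted p = 6.28e-05). The other 4 did not pass: Gata4 moved from 7.30, 10.5 and 15.8 to 16.8, 17.2 and 17.02 CPM, which do not overlap (log2 change 0.61, SE 0.34, edgeR adjusted p = 0.157), while Hnf4a, Pdgfra and Amn overlapped between the media.

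In FA, the RAS-deleted line with ERF wild type had 5 genes called higher, and Gata6 was called lower, where 9.96% of all genes were called higher and 6.59% lower. Lrp2 rose from 55.8, 60.9 and 53.6 CPM to 314, 531 and 724 CPM, or 3.20 on the log2 scale (SE 0.20, edgeR adjusted p = 8.36e-10). Car4 rose from 2 counts in all to 4.86, 19.1 and 29.6 CPM (edgeR adjusted p = 2.62e-05). Its ratio of summed counts was 550.5, with an exact 95% counting interval of 152 to 4550; the 3 libraries in FA were spread widely, with replicate 1 the lowest. Hnf4a rose by 1.48 (SE 0.34, edgeR adjusted p = 0.00132) to 1.71 ± 0.342 CPM (SD, n = 3), Dab2 by 1.24 (SE 0.30, edgeR adjusted p = 0.00290) to 7.79 ± 1.00 CPM (SD, n = 3), and Sox7 from 4 counts to 37 (edgeR adjusted p = 0.00784). With effective-length offsets the change of Dab2 was 0.90 and it was no longer called. Gata6 fell by 1.38 (SE 0.35, edgeR adjusted p = 0.00298), from 2.69 to 3.71 CPM in 2iL to 0.719 to 1.62 CPM in FA, the opposite direction to its change in the ERF knockout line with RAS. Cubn had 7 counts in 2iL and 36 in FA, a ratio of 4.03 with an exact 95% counting interval of 1.77 to 10.7. It was not called (log2 change 1.96, SE 1.37, edgeR adjusted p = 0.272), but was called with only the 6 libraries compared in the model, both without a replicate block (1.97, SE 0.50, edgeR adjusted p = 0.0139) and with it (1.99, SE 0.55, edgeR adjusted p = 0.0179), by DESeq2 (2.02, adjusted p = 0.0191), and with no low-count filter.

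In the line with ERF knockout and RAS deletion, 5 genes were called higher in FA and Hnf4a was called lower, where 14.5% of all genes were called higher and 10.4% lower. Lrp2 rose from 19.9, 16.9 and 19.3 CPM to 897, 931 and 826 CPM, or 5.57 on the log2 scale (SE 0.23, edgeR adjusted p = 1.13e-12), and reached the highest level it had in any group. Car4 rose from 0.398, 1.01 and 0.809 CPM to 49.96, 51.5 and 51.7 CPM, or 6.10 on the log2 scale (SE 0.70, edgeR adjusted p = 3.86e-06). Cubn rose by 1.89 (SE 0.56, edgeR adjusted p = 0.00885) to 4.40 ± 0.900 CPM (SD, n = 3), and Dab2 by 1.32 (SE 0.29, edgeR adjusted p = 0.000707) to 11.8 ± 0.611 CPM (SD, n = 3). Sox7 rose by 1.53 (SE 0.59, edgeR adjusted p = 0.0313), a call that was lost without replicate 1 or 2 in 2iL or replicate 2 or 3 in FA (1.13 to 1.498). Hnf4a fell by 1.53 (SE 0.32, edgeR adjusted p = 0.000295), from 1.82, 2.52 and 2.63 CPM to 0.579, 0.735 and 1.12 CPM. Gata6 again stood lower in FA, at 1.90 to 2.94 against 3.71 to 4.21 CPM, and did not pass (-0.73, SE 0.31, edgeR adjusted p = 0.0530). Amn was not called (0.97, SE 0.53, edgeR adjusted p = 0.130) but was called with the replicate block and only the 6 libraries compared (1.01, SE 0.33, edgeR adjusted p = 0.0139). Those libraries without the block gave 0.97, under the 2-fold minimum (edgeR adjusted p = 0.0202).

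Markers of other cell states and types moved with FA in these 3 lines. The 4 epiblast-like markers were all called higher in each line. Their sum went from 45.2 to 51.0 CPM in 2iL to 344 to 401 CPM in FA in the ERF knockout line, from 51.2 to 63.7 to 102 to 291 CPM in the RAS-deleted line, and from 43.1 to 51.1 to 462 to 487 CPM in the line without both. The 5 stem cell markers went from 1824 to 1941 to 532 to 633 CPM (4 called lower), from 1959 to 2075 to 1443 to 2029 CPM (1 called lower, the sums overlapping) and from 1971 to 2040 to 600 to 625 CPM (5 called lower), in the same order of lines. In that order, 12.3%, 9.96% and 14.5% of all genes were called higher and 7.46%, 6.59% and 10.4% lower. The 5 trophoblast markers went from 40.2 to 48.8 to 13.2 to 17.1 CPM, from 100.1 to 117 to 39.8 to 52.5 CPM and from 48.6 to 51.6 to 9.49 to 10.2 CPM. Definitive endoderm and mesoderm markers overlapped between the media in the ERF knockout line, stood lower in FA in the RAS-deleted line (11.1 to 14.1 against 19.4 to 21.7 CPM) and higher in the line without both (14.5 to 17.99 against 12.2 to 13.3 CPM). Fibroblast markers separated the media only in the RAS-deleted line, at 2.11 to 3.59 CPM in FA against 4.36 to 5.70 CPM. The part of these markers in the response of the 10 genes was not tested.

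**Figure D2:**
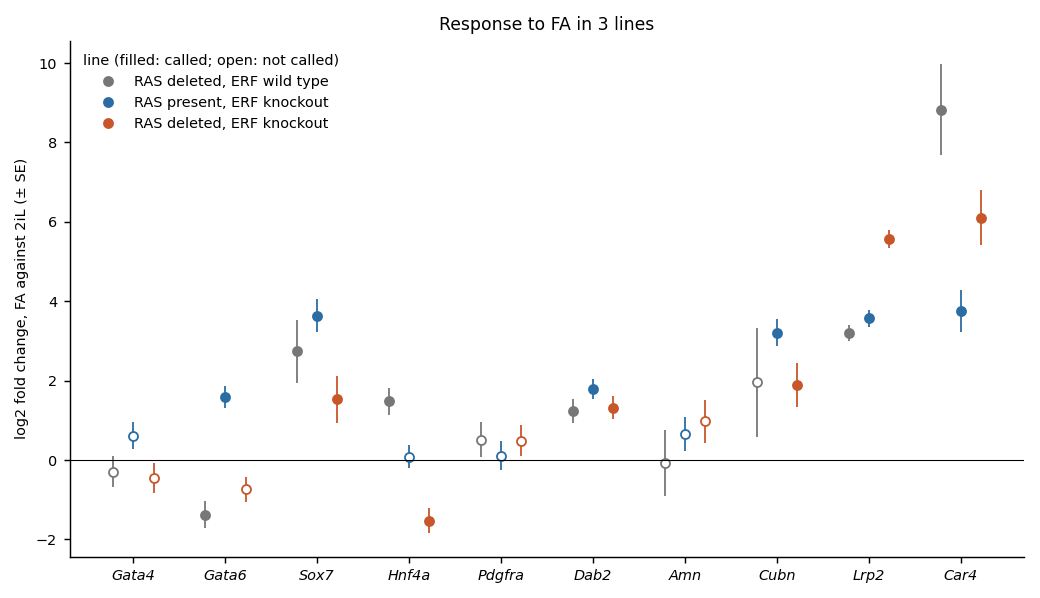
Points are log2 fold changes of FA against 2iL with SE bars for the 10 genes in 3 lines, filled where called and open where not. Lrp2 and Car4 are called higher in all 3 lines, whereas Gata6 is above 0 with RAS (1.59) and below 0 in both lines without it, and the points of Sox7, Cubn and Car4 in the RAS-deleted, ERF wild-type line rest on 2 to 7 counts in 2iL.

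Whether the response of the ERF knockout line to FA changed with RAS was tested as an interaction. It was called lower for Gata6 (-2.33, SE 0.42, edgeR adjusted p = 0.00114) and Hnf4a (-1.61, SE 0.43, edgeR adjusted p = 0.0154) and higher for Lrp2 (2.00, SE 0.28, edgeR adjusted p = 0.000222), where 2.31% of all genes were called lower and 2.29% higher. Without replicate 1 of the line with ERF knockout and RAS deletion in FA, the value of Hnf4a was -1.42 and was not called. For the other 7 genes, Cubn and Car4 included, the interaction was not called by edgeR with the low-count filter. Over the whole gene set, 5 genes were called by DESeq2 and 7 with no low-count filter. Some of the other 7 were therefore called in those settings. Without RAS, the response to FA also differed with ERF for 2 genes. Hnf4a rose with ERF and fell without it (-3.00, SE 0.47, edgeR adjusted p = 4.39e-05), and Lrp2 rose further without ERF (2.36, SE 0.28, edgeR adjusted p = 6.65e-06). In that interaction 5.74% of all genes were called lower and 5.59% higher.

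Most of these genes were lower in FA after deletion of RAS. With ERF wild type, 8 genes were tested, since the libraries of the reference line had served to choose Cubn and Car4, and 7 were called lower, where 8.33% of all genes were. Sox7 fell by 4.42 (SE 0.43, edgeR adjusted p = 3.53e-08), from 12.4 and 8.57 CPM to 0.132, 0.689 and 0.611 CPM. Amn fell by 4.05 (SE 0.61, edgeR adjusted p = 1.85e-05) and Gata6 by 4.03 (SE 0.33, edgeR adjusted p = 5.85e-09), from 24.9 and 13.6 CPM to 1.62, 1.26 and 0.719 CPM. Gata6 thereby stood below its own level in 2iL. Dab2 fell by 3.15 (SE 0.28, edgeR adjusted p = 4.17e-08), from 83.4 and 54.5 CPM to 8.63, 8.06 and 6.69 CPM. The smaller falls were those of Pdgfra (-2.49), Gata4 (-2.26) and Hnf4a (-1.56). The call for Hnf4a was lost without replicate 1 of the reference line in FA (-0.85, edgeR adjusted p = 0.0577).

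Cubn and Car4, described without a test here, differed in size. Cubn stood at 0.526, 0.486 and 0.431 CPM without RAS against 339.9 and 157 CPM with it, so its mean was 516 times lower. Car4 stood at 4.86, 19.1 and 29.6 CPM against 55.4 and 85.1 CPM, a mean 3.94 times lower. Lrp2 did not follow the others: its libraries overlapped, at 314, 531 and 724 CPM without RAS and 487 and 515 CPM with it, and its log2 change was 0.06 (SE 0.21, edgeR adjusted p = 0.842). That value changed sign without replicate 3 of the RAS-deleted line (-0.25). Markers of embryonic stem cells moved with this contrast: the summed level of 5 of them, Pou5f1, Sox2, Nanog, Esrrb and Zfp42, was 1443 to 2029 CPM without RAS and 602 to 636 CPM with it, and 4 of the 5 were called higher. Of 4 epiblast-like markers, 3 were called lower and 1 higher. Over all genes 8.33% were called lower and 8.93% higher in this contrast. Markers of other cell types separated the groups as well. The 5 trophoblast markers summed to 39.8 to 52.5 CPM without RAS against 18.1 to 24.2 CPM (2 called higher, 3 lower), the 5 fibroblast markers to 2.11 to 3.59 against 4.36 to 5.25 CPM (2 called lower) and the 6 definitive endoderm and mesoderm markers to 11.1 to 14.1 against 16.7 to 20.3 CPM (1 called, higher). The higher trophoblast sum came from Tfap2c, at a mean of 45.4 CPM without RAS against 11.4 CPM, while Hand1 stood at 0.335 against 7.27 CPM. The part of all these markers in the fall of the endoderm genes was not tested.

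With ERF knockout, RAS deletion in FA called 7 of the 10 genes lower, where 4.06% of all genes were, and Lrp2 higher, where 2.81% were. Cubn fell by 4.54 (SE 0.37, edgeR adjusted p = 3.80e-07), from 95.02, 76.6 and 133 CPM to 3.77, 4.00 and 5.43 CPM. Sox7 fell by 3.34 (SE 0.39, edgeR adjusted p = 2.50e-06), from 8.48, 7.69 and 7.17 CPM to 0.547, 0.980 and 0.787 CPM, and Gata6 by 2.86 (SE 0.29, edgeR adjusted p = 7.53e-07). Dab2 fell by 1.97 (SE 0.25, edgeR adjusted p = 2.03e-05), from 45.3, 40.8 and 52.4 CPM to 11.2, 11.8 and 12.4 CPM, Gata4 by 1.78 (SE 0.35) and Hnf4a by 1.71 (SE 0.31). Amn fell by 1.43 (SE 0.44, edgeR adjusted p = 0.0222), a call that was lost without any 1 of 5 of the 6 libraries (edgeR adjusted p = 0.0510 to 0.0807). The exception was replicate 2 of the ERF knockout line with RAS. Here the stem cell markers did not separate the groups, with a summed level of 600 to 625 CPM without RAS and 532 to 633 CPM with it. None of the 5 was called by edgeR, and 4 had an unadjusted p under 0.05. Other marker sums did separate them: without RAS the 4 epiblast-like markers stood at 462 to 487 against 344 to 401 CPM (1 called higher, Fgf5), and the 6 definitive endoderm and mesoderm markers at 14.5 to 17.99 against 8.30 to 10.4 CPM (none called). The 5 trophoblast markers stood at 9.49 to 10.2 against 13.2 to 17.1 CPM (1 called lower, Krt7), and the 5 fibroblast markers at 6.05 to 7.35 against 4.15 to 4.97 CPM (1 called higher, Col1a2). Their part in the falls was not tested.

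In the same comparison Lrp2 rose by 1.35 (SE 0.19, edgeR adjusted p = 6.02e-05), from 359, 309 and 373 CPM to 897, 931 and 826 CPM. Pdgfra stood at 10.6, 11.6 and 9.80 CPM with RAS and 2.99, 6.78 and 7.96 CPM without it, and did not pass (-0.86, SE 0.36, edgeR adjusted p = 0.0875), except without replicate 3 of the RAS-deleted libraries (-1.15). Car4 overlapped with and without RAS, at 57.9, 47.6 and 50.9 against 49.96, 51.5 and 51.7 CPM. Its log2 change was -0.03 with an SE of 0.43, so a change of moderate size in either direction was not detectable here, and the sign turned with total counts as the library size (0.02), with effective-length offsets (0.01) and without replicate 1 of the line with RAS (0.05). In the same libraries Cubn fell by 4.54.

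**Figure D3:**
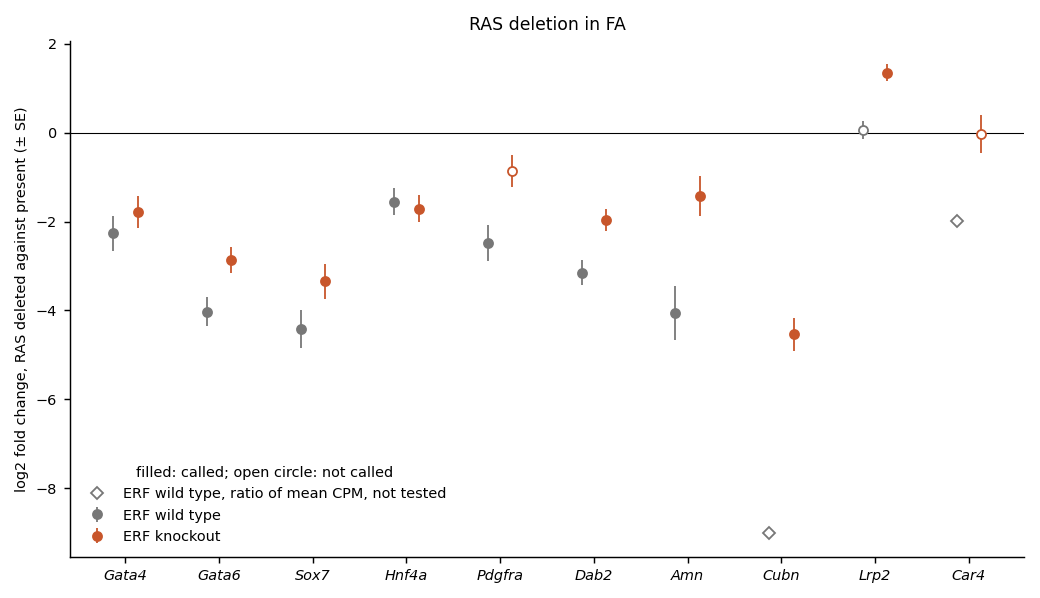
Points are log2 fold changes for RAS deletion in FA, with SE bars, in ERF wild type (grey) and ERF knockout (orange), filled where called; grey diamonds are ratios of mean CPM for Cubn and Car4, which were not tested with ERF wild type. Every point is below 0 except those of Lrp2, and Car4 with ERF knockout lies at -0.03, a value whose sign turned under 3 alternatives.

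The effect of RAS deletion in FA differed with ERF for 4 of the 8 genes that could be tested, in an interaction added after the values were seen. It was called higher for Amn (2.62, SE 0.78, edgeR adjusted p = 0.0147), Pdgfra (1.63, SE 0.55, edgeR adjusted p = 0.0324), Lrp2 (1.29, SE 0.28, edgeR adjusted p = 0.00182) and Dab2 (1.18, SE 0.37, edgeR adjusted p = 0.0218), where 6.29% of all genes were called higher. A value above 0 means that the fall with RAS deletion was smaller, or for Lrp2 the rise larger, when ERF was knocked out. Gata6 was close (1.16, SE 0.45, edgeR adjusted p = 0.0581) and was called without replicate 1 of the RAS-deleted line (1.44) or replicate 2 of the reference line (1.503). Gata6 was also called by DESeq2 (adjusted p = 0.0412), with no low-count filter and with effective-length offsets (edgeR adjusted p = 0.000360 and 0.0433). Pdgfra was lost with effective-length offsets (1.11, edgeR adjusted p = 0.229), with only the groups compared (edgeR adjusted p = 0.0686, or 0.0975 with the replicate block) and without any 1 of 8 of the 11 libraries, and Dab2 also without replicate 3 of the RAS-deleted line (1.08). Only 1 of these calls was kept without replicate 1 of the reference line in FA, and 2 were kept without the 4 libraries with raised chromosome 8 expression, without replicate 2 of the RAS-deleted line or without replicate 2 of the ERF knockout line.

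In 2iL, where a MEK inhibitor is present, most of these genes stood higher once ERF was knocked out. With RAS present, 5 of the 8 genes tested were called higher in the ERF knockout line, where 5.20% of all genes were, and Lrp2 was called lower, where 4.52% were. Hnf4a rose by 2.85 (SE 0.37, edgeR adjusted p = 3.62e-06), from 0.455, 0.357 and 0.186 CPM to 1.97, 2.27 and 3.21 CPM. Dab2 rose by 2.58 (SE 0.31, edgeR adjusted p = 6.49e-06), from 1.96, 2.38 and 2.46 CPM to 7.59, 11.9 and 20.97 CPM. Amn rose by 2.55 (SE 0.54, edgeR adjusted p = 0.00136) and Pdgfra by 2.33 (SE 0.41, edgeR adjusted p = 0.000328), each with no overlap between the groups. Sox7 rose by 2.01 (SE 0.65, edgeR adjusted p = 0.0252) from 10 to 36 counts, its libraries overlapped, and the call was lost without replicate 1 or 3 of the reference line or replicate 2 or 3 of the ERF knockout line, with 1.22 left without the last of these. It was also lost without the libraries with raised chromosome 8 expression (edgeR adjusted p = 0.0530).

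Cubn and Car4 had the same ordering and were not tested. Cubn was at 0.0700, 0.0595 and 0.0929 CPM in the reference line and 5.96, 10.7 and 16.5 CPM with ERF knockout, from 5 counts to 636. Car4 went from 0 counts to 2.45, 2.22 and 6.94 CPM, at least 27.4-fold higher against the floor of 3 counts per library. Lrp2 went the other way, from 57.5, 60.5 and 58.6 CPM to 31.0, 24.7 and 32.0 CPM, or -1.01 on the log2 scale (SE 0.20, edgeR adjusted p = 0.000974), close enough to the 2-fold minimum that 5 alternatives put it just under (-0.88 to -0.998). Gata4 did not overlap either, at 7.001, 7.20 and 3.53 against 7.30, 10.5 and 15.8 CPM, and did not pass (0.92, SE 0.36, edgeR adjusted p = 0.0662), except without replicate 1 of the ERF knockout line (1.17). Gata6 overlapped between the groups.

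The 3 ERF knockout libraries in 2iL differed among themselves. Replicate 3 was the highest of the group in all 10 genes and replicate 1 the lowest in 8 of 10. For Cubn the levels were 5.96, 10.7 and 16.5 CPM and for Amn 1.35, 2.27 and 4.57 CPM. Markers of other cell types moved with the ERF knockout in 2iL: the summed level of 5 trophoblast markers was 40.2 to 48.8 CPM against 106 to 124 CPM in the reference line, and that of 6 definitive endoderm and mesoderm markers 9.36 to 11.6 against 18.1 to 19.4 CPM. Their part in the rise was not tested. The stem cell markers summed to 1824 to 1941 CPM against 2065 to 2210 CPM. None of the 5 was called by edgeR, and 3 had an unadjusted p under 0.05.

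**Figure D4:**
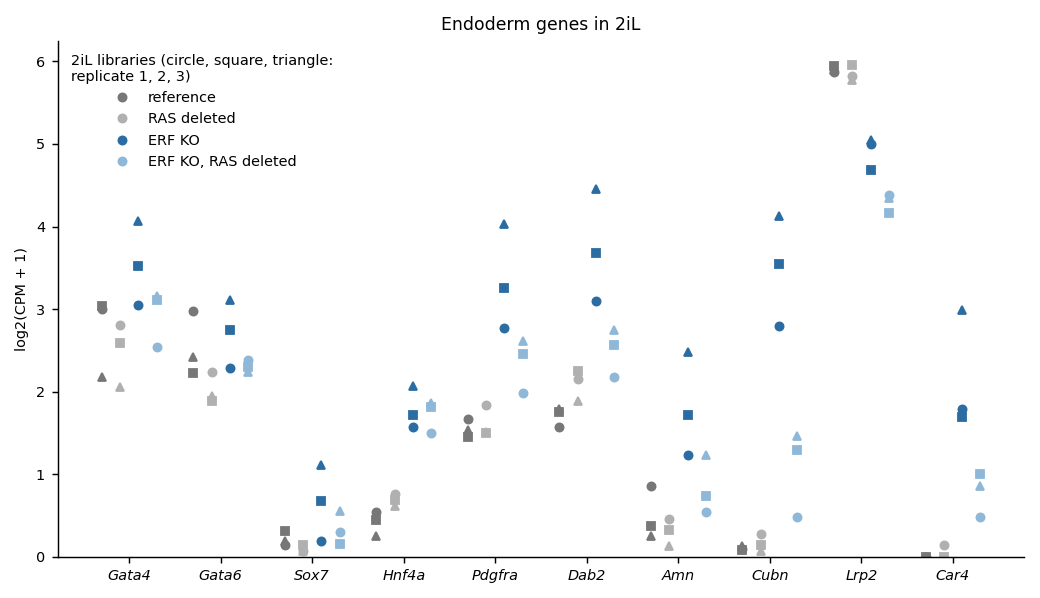
The plot gives log2(CPM + 1) of the 10 genes in the 12 libraries in 2iL, in grey for ERF wild type and blue for ERF knockout, in the paler shade where RAS was deleted, with circle, square and triangle for replicates 1, 2 and 3. ERF knockout libraries with RAS lie highest for Cubn, Dab2, Pdgfra and Car4, and Lrp2 is lowest in the ERF knockout libraries.

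Deletion of RAS in 2iL was followed by fewer calls. With ERF wild type none of the 8 genes tested was called by edgeR or DESeq2, 1 had an unadjusted p under 0.05, and 1.20% of all genes were called in either direction. That gene was Gata6, at 3.71, 2.69 and 2.86 CPM without RAS against 6.86, 3.69 and 4.37 CPM with it (log2 change -0.71, SE 0.30, edgeR adjusted p = 0.171). With ERF knockout, 2 genes were called lower and none higher, where 0.142% of all genes were. Cubn fell by 3.22 (SE 0.51, edgeR adjusted p = 0.00818), from 5.96, 10.7 and 16.5 CPM to 0.398, 1.46 and 1.75 CPM. Dab2 fell by 1.51 (SE 0.29, edgeR adjusted p = 0.0164), from 7.59, 11.9 and 20.97 CPM to 3.53, 4.93 and 5.73 CPM. The replicate numbers pair the libraries in this comparison, and with the replicate block and only the 6 libraries compared 5 genes were called lower: Car4 (-2.29, edgeR adjusted p = 3.23e-05), Amn (-1.72, edgeR adjusted p = 1.99e-05) and Pdgfra (-1.21, edgeR adjusted p = 6.09e-07) joined them, against edgeR adjusted p = 0.212, 0.104 and 0.124 in the model of all 23 libraries without it. These 3 were also called by DESeq2 (adjusted p = 0.0106, 0.0368 and 0.0232) and with no low-count filter. Over all genes, that blocked model of 6 libraries called 139 lower, against 29 in the model of 23 libraries. With only the 6 libraries and no block, neither Cubn nor Dab2 was called (edgeR adjusted p = 0.0589 and 0.153), and Dab2 was also lost without replicate 1 or 2 of the RAS-deleted libraries (edgeR adjusted p = 0.0578 and 0.0749). The stem cell markers summed to 1971 to 2040 CPM without RAS against 1824 to 1941 CPM, and the definitive endoderm and mesoderm markers to 12.2 to 13.3 against 9.36 to 11.6 CPM. None of them was called by edgeR, 1 stem cell marker had an unadjusted p under 0.05, and their part in the falls was not tested.

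The ERF knockout was also compared with ERF wild type in the other settings. In FA with RAS present, none of the 8 genes tested was called by edgeR or DESeq2, 3 had an unadjusted p under 0.05, and 2.36% of all genes were called in either direction. The nearest was Hnf4a, at 2.32, 2.91 and 2.67 CPM against 6.87 and 3.13 CPM (-0.93, SE 0.30, edgeR adjusted p = 0.0481), which fell short of the 2-fold minimum and passed it without replicate 2 of the reference line (-1.37). Cubn, not tested, stood at 95.02, 76.6 and 133 CPM against 339.9 and 157 CPM. Marker sums separated these groups as well. With ERF knockout the epiblast-like markers stood at 344 to 401 against 548 to 619.5 CPM (none called). The definitive endoderm and mesoderm markers stood at 8.30 to 10.4 against 16.7 to 20.3 CPM and the trophoblast markers at 13.2 to 17.1 against 18.1 to 24.2 CPM (1 called lower in each). Stem cell and fibroblast markers overlapped. The part of these markers was not tested.

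With RAS deleted, ERF knockout in FA called 4 genes higher, where 8.13% of all genes were, and Hnf4a lower, where 8.48% were. Cubn rose by 3.18 (SE 0.61, edgeR adjusted p = 0.000449), from 0.526, 0.486 and 0.431 CPM to 3.77, 4.00 and 5.43 CPM, and Amn by 2.77 (SE 0.61, edgeR adjusted p = 0.000904), from 0.482, 0.0405 and 0.180 CPM to 1.48, 1.71 and 1.58 CPM. Both stayed under their levels in FA in the lines with RAS. Car4 rose by 1.504 (SE 0.45, edgeR adjusted p = 0.0149), Gata6 by 1.00 (SE 0.35, edgeR adjusted p = 0.0241) and Hnf4a fell by 1.09 (SE 0.32, edgeR adjusted p = 0.00764). These 3 calls were fragile: Car4 was lost with only the groups compared (edgeR adjusted p = 0.0765), Gata6 fell just under 2-fold with RLE size factors, total counts, totals without Gm26917, only the groups compared or DESeq2 (0.98 to 1.00), and Hnf4a was lost with effective-length offsets (-0.78, edgeR adjusted p = 0.117). Hnf4a also fell short of 2-fold without replicate 1 of either line (-0.92 and -0.88). Gata6 was lost without replicate 2 or 3 of the ERF wild-type line or replicate 3 of the line without both. Lrp2, at 897, 931 and 826 against 314, 531 and 724 CPM, was under the 2-fold minimum (0.76, SE 0.19, edgeR adjusted p = 0.00291) and passed it without replicate 3 of the ERF wild-type line (1.07). Markers of cell state separated these groups: with ERF knockout the 5 stem cell markers summed to 600 to 625 against 1443 to 2029 CPM (4 called lower), and the 4 epiblast-like markers to 462 to 487 against 102 to 291 CPM (3 called higher). So did the trophoblast markers, at 9.49 to 10.2 against 39.8 to 52.5 CPM (2 called higher, 1 lower), the fibroblast markers, at 6.05 to 7.35 against 2.11 to 3.59 CPM (2 called higher), and the definitive endoderm and mesoderm markers, at 14.5 to 17.99 against 11.1 to 14.1 CPM (2 called lower). The part of these markers in the changes was not tested.

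In 2iL with RAS deleted, ERF knockout called 2 genes higher, where 5.83% of all genes were, and Lrp2 lower, where 7.15% were. Hnf4a rose by 1.91 (SE 0.35, edgeR adjusted p = 0.000122), from 0.699, 0.609 and 0.532 CPM to 1.82, 2.52 and 2.63 CPM, which overlap its levels in the ERF knockout line with RAS. Lrp2 fell by 1.60 (SE 0.21, edgeR adjusted p = 8.83e-06), from 55.8, 60.9 and 53.6 CPM to 19.9, 16.9 and 19.3 CPM. Cubn rose from 7 counts to 59, a ratio of 9.89 with an exact 95% counting interval of 4.51 to 25.7 (edgeR adjusted p = 0.0403). That call was lost without replicate 1, 2 or 3 of the ERF wild-type line or replicate 2 or 3 of the line without both (edgeR adjusted p = 0.0657 to 0.116). It was also lost with total counts as library size (edgeR adjusted p = 0.0526) and without the libraries with raised chromosome 8 expression (edgeR adjusted p = 0.0827). Amn, Pdgfra and Car4 were not called (edgeR adjusted p = 0.0621, 0.0781 and 0.160) and were called by DESeq2 (adjusted p = 0.0197, 0.0225 and 0.000993) and with no low-count filter, Pdgfra also with only the groups compared (edgeR adjusted p = 0.00224). Amn was also called without replicate 1 of the line without both (2.03) or without the libraries with raised chromosome 8 expression (2.19). The 5 trophoblast markers summed to 48.6 to 51.6 CPM with ERF knockout against 100.1 to 117 CPM (2 called lower), and the 6 definitive endoderm and mesoderm markers to 12.2 to 13.3 against 19.4 to 21.7 CPM (3 called lower). The 4 epiblast-like markers summed to 43.1 to 51.1 against 51.2 to 63.7 CPM (1 called lower, Otx2). Their part in these changes was not tested.

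Cubn and Car4 thus had different orders over the 8 groups, though both were chosen for the same rise. From high to low, Cubn ran from the reference line in FA (157 to 339.9 CPM) to the ERF knockout line in FA (76.6 to 133), the ERF knockout line in 2iL (5.96 to 16.5), the line without both in FA (3.77 to 5.43) and in 2iL (0.398 to 1.75), the RAS-deleted line in FA (0.431 to 0.526) and in 2iL (0.0484 to 0.215), and the reference line in 2iL (0.0595 to 0.0929). Only the fifth and the sixth, and the last 2, overlapped. Car4 ran from the reference line in FA (55.4 to 85.1 CPM) to the ERF knockout line (47.6 to 57.9) and the line without both (49.96 to 51.7) in FA, with overlap between neighbours. Below them came the RAS-deleted line in FA (4.86 to 29.6), which overlapped the ERF knockout line in 2iL (2.22 to 6.94), then the line without both in 2iL (0.398 to 1.01), the RAS-deleted line in 2iL (0.00 to 0.107) and the reference line in 2iL (0).

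Likeness was measured as Pearson's r of the 8 group means of log2(CPM + 1), over 11176 tested genes that reached 5 CPM in some group, and is a description over points that share libraries. The genes most like Cubn were Qtrt2 (r = 0.99), Foxq1 (0.98), Polr3e (0.98), Dab2 (0.97) and Bmp6 (0.97). Qtrt2 and Polr3e varied little, from 20.0 to 28.9 and from 42.9 to 59.1 CPM, while Foxq1, a forkhead transcription factor, ran from 0.711 to 30.9 CPM. The genes most like Car4 were Cacng8, Mycbp2, Odc1, Uhrf2 and Platr22 (r = 0.99 to 1.00), among which Odc1, the first enzyme of polyamine synthesis, ran from 168 to 547 CPM. Within the 10, r with Cubn was 0.79 or more for Gata4, Gata6, Sox7, Hnf4a, Pdgfra, Dab2 and Amn, 0.76 for Car4 and 0.43 for Lrp2, and r with Car4 was highest for Dab2 (0.87) and Lrp2 (0.86). By Spearman correlation over the 23 libraries, 1 of the 5 genes named for Cubn (Dab2) and 2 of those for Car4 (Odc1 and Mycbp2) were again among the top 5.

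The genes around the list were read from lists of other endoderm genes. Of 9 extra-embryonic endoderm regulators, 8 were tested, and RAS deletion in FA called 2 lower and 2 higher with ERF wild type, where 8.33% of all genes were called lower and 8.93% higher, with a median log2 change of -0.43 against 0.00 over all genes. The forkhead factor Foxa2 fell by 2.87 (SE 0.63) and Sox17 by 2.03 (SE 0.47), while the FGF receptor Fgfr2 rose by 1.87 (SE 0.28) and Cited1 by 1.49 (SE 0.31). With ERF knockout, Sox17 fell by 1.86 (SE 0.42), and Fgfr2 rose by 2.60 (SE 0.26) and Nr2f2 by 1.70 (SE 0.33), where 4.06% of all genes were called lower and 2.81% higher. In 2iL with RAS, the ERF knockout called 3 of the 8 higher and none lower, where 5.20% and 4.52% of all genes were: Sox17 (1.32, SE 0.40), Pth1r (4.33, SE 0.61), the parathyroid hormone receptor of parietal endoderm, and Foxa2 (2.67, SE 0.74). In FA with RAS, the ERF knockout called 1 of the 8, where 2.36% of all genes were called in either direction: Fgfr2, which fell by 1.31 (SE 0.28).

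Of 16 genes for transport and secreted proteins of visceral endoderm, 11 were tested. RAS deletion in FA with ERF wild type called 7 lower and 1 higher, against the same 8.33% and 8.93% of all genes, with a median of -1.45. The apolipoproteins Apoe and Apob fell by 1.01 (SE 0.28) and 2.05 (SE 0.27), Mttp, which loads lipid onto Apob, by 1.87 (SE 0.18) and the iron carrier Trf by 3.16 (SE 0.40), whereas Apom was the 1 called higher (1.21, SE 0.21). With ERF knockout, 2 of the 11 were called lower, against 4.06% of all genes: Trf (-1.42, SE 0.30) and Rbp4 (-1.17, SE 0.39). In 2iL with RAS, the ERF knockout raised Apoe (1.16, SE 0.25), Trf (2.04, SE 0.29) and Mttp (1.49, SE 0.17) and lowered Apom (-2.30, SE 0.21), where 5.20% of all genes were called higher and 4.52% lower.

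**Figure D5:**
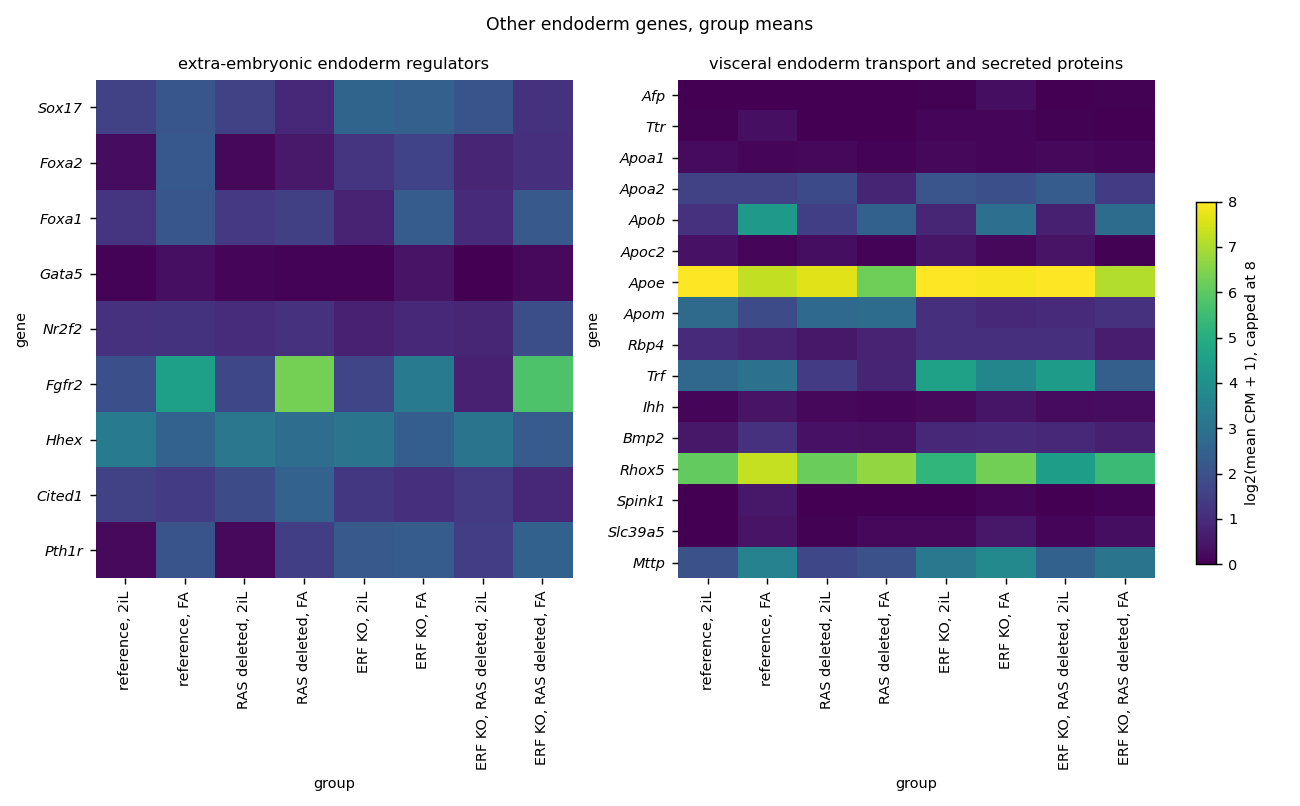
Colour gives log2(mean CPM + 1), capped at 8, for 9 regulators (left) and 16 transport and secreted proteins (right) in the 8 groups. Fgfr2 is brightest in FA in the 2 lines without RAS (79.5 and 53.1 CPM), and Afp, Ttr and Apoa1 stay dark in every group.

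Partners of the receptors were read from a list as well. Of 16 listed genes for uptake by megalin and cubilin, among them chaperones, other receptors of the family and carriers of vitamin B12, 15 were tested. RAS deletion in FA with ERF knockout called none of them by edgeR, with 7 at an unadjusted p under 0.05 and a median of -0.19. Over all genes 4.06% were called lower and 2.81% higher there, so a count of 0 among 15 is near the background. With ERF wild type it called 2 higher and 2 lower, where 8.93% and 8.33% of all genes were: the megalin chaperone Lrpap1 rose by 1.13 (SE 0.21) and Fcgrt by 1.45 (SE 0.36), while the lipoprotein receptor Vldlr fell by 1.78 (SE 0.26) and the adaptor Dab1 by 1.86 (SE 0.23). In response to FA, the chloride exchanger Clcn5 was the only one called in the RAS-deleted line (1.36, SE 0.09), where 9.96% of all genes were called higher, and none was called in the ERF knockout line with RAS (11 at an unadjusted p under 0.05), where 12.3% of all genes were called higher and 7.46% lower.

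Of 15 other carbonic anhydrases, 13 were tested. In FA, the ERF knockout line with RAS called 6 higher and 1 lower (12.3% and 7.46% of all genes), the RAS-deleted line 4 higher and 5 lower (9.96% and 6.59% of all genes), and the line without both 6 higher and 3 lower (14.5% and 10.4%). Of the 6 in the ERF knockout line, Car2, a cytosolic form, had the highest level, and it rose by 1.94 (SE 0.10) to 104 ± 6.12 CPM (SD, n = 3). RAS deletion in FA called 6 lower and 2 higher with ERF wild type (8.33% and 8.93% of all genes), Car2 among the lower (-1.47, SE 0.11), and 2 lower and none higher with ERF knockout (4.06% and 2.81%). The PDGF family list held 7 genes besides Pdgfra. RAS deletion in FA with ERF wild type, in which Pdgfra fell by 2.49, called 3 of them higher and 1 lower: the receptor Kit rose by 1.93 (SE 0.15), and the ligands Pdgfa and Pdgfc by 2.56 (SE 0.20) and 3.33 (SE 0.23), while the receptor Pdgfrb fell by 1.13 (SE 0.23).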

How the data were processed

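Per the labels' protocols, ribosomal RNA was removed and stranded libraries (NEBNext Ultra II Directional) were read from both ends. Per the submitters' processing notes, bcl2fastq 2.20.0, fastp 0.20.0 and Salmon were used with mm10. The deposited files hold Salmon's estimated counts, effective lengths and TPM per gene and a series table of counts, equal to the authors' estimated counts after rounding. Total counts per library, 16.2 to 29.9 M, set the precision, and 1 gene, Gm26917, took 17.6 to 27.9% of them.

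Rounded counts were filtered by filterByExpr, scaled by TMM and tested with edgeR 4.0.16 (R 4.3.3, limma 3.58.1) in 1 robust quasi-likelihood model with a coefficient per group. Calls needed a Benjamini-Hochberg adjusted p under 0.05 and at least a 2-fold change. SE is the log2 change divided by the root of F. Alternatives were DESeq2 1.42.0, other scalings and filters, the replicate block (with only the groups compared), those groups without it, and each library left out. In addition, after the data were seen, totals without Gm26917 and fits without the 4 libraries with raised chromosome 8 expression were run. Apart from marker genes and genotype checks, other genes named are the called members of each list, highest level first and at most 4 per list and comparison (Apom was added after its values were seen), and the 5 genes most like Cubn and Car4. The members and lists were chosen with earlier results of these data known. Exact intervals cover counting error only, and reads carried no stated molecular identifiers.

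Replicate numbers paired the libraries (every correlation of same-numbered deviations over 0.1) in the 3 comparisons of media and in RAS deletion in 2iL, with r = 0.12 to 0.45, as a property of the data and not of the labels. The code was tested on simulated data. One gene of a list is not reported here and was left out of its counts.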

Additional observations from a re-analysis of the deposited data

Results flagged for a closer look

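In 9 cases the difference between 2 effects under the same contrast passed its own test, by edgeR's quasi-likelihood test. With ERF knockout, the response to FA differed between the lines without and with RAS by -2.33 for Gata6, -1.61 for Hnf4a and 2.00 for Lrp2 on the log2 scale. The value of Hnf4a was -1.42 and no longer called without replicate 1 of the line with ERF knockout and RAS deletion in FA.

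With RAS deleted, the response to FA differed between ERF knockout and ERF wild type by -3.00 for Hnf4a and by 2.36 for Lrp2, in opposite directions for these 2 genes. Lrp2 and Hnf4a were called in both of these tests.

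In FA, the effect of RAS deletion differed between ERF knockout and ERF wild type by 2.62 for Amn, 1.63 for Pdgfra, 1.29 for Lrp2 and 1.18 for Dab2. Without replicate 1 of the reference line in FA, 1 of only 2 libraries in that group, the values were 2.25 for Amn, 0.83 for Pdgfra and 0.81 for Dab2, none of them called.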

How the results depend on the processing

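Of 58 called results for single genes, 42 kept direction and call under every alternative run. Over their 882 alternative values, 816 kept the call, 66 lost it and 0 changed sign. Among genes not called, the sign turned for Car4 under RAS deletion in FA with ERF knockout (0.020 with total counts as library size, 0.012 with effective-length offsets, -0.103 to 0.051 with a library left out) and for Lrp2 with ERF wild type (-0.286 with the replicate block and only the groups compared, -0.246 to 0.324 with a library left out). Counts of called genes moved by over 1.5 times as follows. For RAS deletion in 2iL with ERF knockout, 2 became 5 with no low-count filter, by DESeq2, or with the replicate block and only the groups compared, 0 with only the groups compared and no block, and 1 to 2 with a library left out. For ERF knockout in 2iL without RAS, 3 became 7 with no low-count filter, 6 by DESeq2 and 2 to 4 with a library left out. For ERF knockout in FA without RAS, 5 became 3 with only the groups compared, whether with the replicate block or not, and 4 to 5 with a library left out. For ERF knockout in FA with RAS, 0 became 1 with no 2-fold minimum and 0 to 1 with a library left out. For the interaction of medium and RAS, 3 became 7 with no low-count filter, 5 by DESeq2 and 2 to 4 with a library left out. For the interaction of RAS and ERF in FA, 4 became 2 without the libraries with raised chromosome 8 expression and 1 to 5 with a library left out. The cause was not tested. In the reference line, the median difference of the 10 genes between media was 2.77 with a pseudocount of 1, 3.30 with 0.1, and 2.46 to 3.04 with a library left out. Leaving out a library gave 6 to 6, 6 to 7 and 5 to 6 called genes for FA in the RAS-deleted, the ERF knockout and the combined line, 7 to 8 for RAS deletion in FA with ERF knockout, 6 to 7 with ERF wild type, 0 to 0 for RAS deletion in 2iL with ERF wild type, 4 to 7 for ERF knockout in 2iL with RAS and 2 to 2 for the interaction of medium and ERF. Where the replicate numbers pair the libraries, the replicate block, run with only the groups compared, changed no call of these genes beyond those given for Cubn, Amn, Car4 and Pdgfra. In the other comparisons not every correlation of same-numbered libraries passed 0.1. For RAS deletion in FA with ERF knockout the correlations were 0.26, 0.03 and 0.16. In FA, replicate 1 of the reference line and of the RAS-deleted line also shared the raised chromosome 8 expression. Depth limits Sox7 in 2iL, at 1 to 22 counts per library, and Cubn and Car4 in 2iL with ERF wild type, at 1 to 4 and 0 to 2 counts. In the RAS-deleted line with ERF wild type it also limits Amn, at 2 to 7 counts per library in 2iL and 1 to 11 in FA. The tests of Amn that use this line in FA rest on 17 counts there. Sox7 had 3 to 17 counts per library in that group.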

Other observations

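The next list held 13 genes of parietal endoderm and of the basement membrane that it secretes in bulk. Of these, ERF knockout in 2iL called 4 higher with RAS (5.20% of all genes were) and 5 without it (5.83%) by edgeR, and none lower. The other 9 and 8 did not pass. With RAS, the collagen chains Col4a1 and Col4a2 rose by 3.62 (SE 0.49) and 3.08 (SE 0.48) and the laminin chains Lamb1 and Lama1 by 2.41 (SE 0.23) and 1.93 (SE 0.37). Col4a1 went from 23.9 ± 6.36 to 295 ± 161 CPM (SD, n = 3). In FA, RAS deletion with ERF wild type called 3 of the 13 higher and 3 lower, where 8.93% and 8.33% of all genes were: Nid1 and Nid2, which encode the linker nidogen, rose by 2.56 (SE 0.23) and 1.39 (SE 0.11), whereas Lamb1 and Lama1 fell by 1.66 (SE 0.24) and 1.99 (SE 0.41).

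Of 7 genes of anterior visceral endoderm, the part that patterns the head end of the epiblast, 6 were tested. RAS deletion in FA called 1 higher and 2 lower with ERF wild type, where 8.93% of all genes were called higher and 8.33% lower, and 2 higher and 2 lower with ERF knockout, where 2.81% and 4.06% were. The homeodomain factor Lhx1 fell by 7.33 (SE 0.55) with ERF wild type and fell by 3.93 (SE 0.45) with ERF knockout. The Wnt inhibitor Dkk1 fell by 4.42 (SE 0.48) and fell by 3.69 (SE 0.47) in the same comparisons. With ERF knockout, Lefty1, a Nodal inhibitor, rose by 1.25 (SE 0.13), from 383 ± 49.1 to 909 ± 107 CPM (SD, n = 3), and Sfrp1, a secreted Wnt antagonist, by 1.62 (SE 0.20), from 19.6 ± 0.594 to 60.3 ± 3.85 CPM (SD, n = 3). Otx2, which epiblast also expresses and which is on the epiblast-like list, rose by 1.03 (SE 0.19) with ERF wild type.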
